A study of Mus musculus with 2 samples.

Results

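Interferon-stimulated genes are the genes that cells transcribe when an interferon binds its receptor, and 47 of them, named in a list, were followed through the cell groups of mouse colon crypts. Of the 47 genes, 45 had a row among the 19294 gene symbols of the count matrix, and Oas2 and Mx2 had none. All 45 had at least 1 molecule count in the cells used, 25 of them had at least 20, and the other 20 held 191 counts together.

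The cells came from colon crypts of Tcf4GfpCre/+ RosamTmG/+ mice of the C57BL/6 background, sacrificed between 4 and 10 months of age without any treatment. The Cre in these animals sits in 1 copy of Tcf4 (Tcf7l2, a transcription factor of the Wnt pathway) and is driven by its promoter, so every animal was also heterozygous for Tcf4, and the samples hold no other genotype or treatment. Cells that never activated Tcf4 keep the red membrane reporter (Tcf4 Lin−), cells in transition carry both the red and the green reporter (Tcf4 DP, or MIX), and both sorts, each mixed with human cells on its own, went into Drop-seq, in which single cells are caught in droplets with barcoded beads. The sources used here do not say whether the barcodes of the matrix mark the sort a cell came from. The 2 labelled samples, pools of samples 1 to 3 and 4 to 6, share this 1 condition, and the barcodes of the matrix could not be assigned to either, so all cells were treated as 1 sample without replicates and no p-value was computed.

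Type I and type III interferons signal through the kinases Jak1 and Tyk2 to a complex that holds Stat2 and Irf9 and binds the interferon-stimulated response element (ISRE), whereas interferon gamma signals through Jak1 and Jak2 to the gamma-activated site (GAS). The products of the induced genes sense and degrade foreign RNA, block entry and release of viruses, attack vacuoles of intracellular microbes and exchange subunits of the proteasome for forms that favor peptides for MHC class I. In the gut, type III interferon is known to act mainly on epithelial cells, and interferon gamma is made by lymphocytes, among them those that lie between the epithelial cells.

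Cells were grouped by the barcode lists of the study. The groups used were 187 natural intraepithelial lymphocytes (nIELs), 175 induced intraepithelial lymphocytes (iIELs), 47 cells of the B cell cluster, and 106 epithelial cells, of which 32 were listed as stem cells, 32 as secretory precursors and 42 as absorptive precursors. These 515 cells held 851385 unique molecular identifiers (UMIs, each counting 1 captured transcript), with a median of 1126 and a range of 504 to 23205 per cell. The lists overlapped in 14 cells, 11 named both iIEL and epithelial and 3 both nIEL and epithelial, which were counted as epithelial here, and 1 cell of the epithelial cluster that was in no subcluster was left out. Epithelial markers (Epcam, Pigr, Krt8, Krt19 and Cdh1) summed to 20006 UMIs per 1000000 (CPM) in the epithelial cells and 143 CPM in the IELs, and T cell markers (Cd3d, Cd3e, Cd3g, Trbc2, Ptprc and Cd7) to 51.5 and 8846 CPM. The B cell cluster was less uniform. Beside B cell markers, the list of T cell markers summed to 2646 CPM in it, but this list includes Ptprc and Cd7. Against the IELs, Ptprc was 1.65-fold lower (1.28 to 2.17) in the cluster, Cd7 2.96-fold lower (2.29 to 3.89) and Cd3e 4.75-fold lower (2.94 to 8.24). Of the 34 cells with a UMI of Cd79a, Cd79b or Ms4a1, 8 held Cd3e, with 16 UMIs. Another 8 cells of the cluster had UMIs of Siglech and none of Cd79a, Cd79b or Ms4a1. A total of 7 epithelial cells with 11080 to 23205 UMIs (1 stem cell, 4 secretory and 2 absorptive precursors, 4 of them also listed as IELs) held 35.4% of all epithelial UMIs, so some results are also given without them. Levels of sparse genes in an epithelial group can rest on these cells without a separate value below. They held all 4 Psmb8 and all 4 Irgm1 UMIs of the secretory precursors and 3 of the 4 epithelial Gbp7 UMIs. The barcode sets X1 (453 cells) and X2 (62 cells) shared no barcode. Levels below are CPM of a group with exact Poisson 95% intervals, and folds are ratios of 2 such levels with exact binomial 95% intervals in parentheses. Both kinds of interval cover counting error only.

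Part of the genes carry the response elements near their start. RefSeq promoter windows on GRCm38.p6, from 250 bases before to 50 bases after an annotated start, matched 35 of the 47 genes by symbol. The ISRE core, read as GAAA, any 2 bases and GAAA again and searched on both strands, was in a window of 20 of these 35 genes (57.1%), against 3.99% of all 27025 genes with a window. A longer form, AGTTTC, any 2 bases and TTTC, likewise searched on both strands and each match of which is also a match of the core, was in 11 of the 35 (31.4%) and in 0.303% of all genes. The palindromic GAS motif TTCNNNGAA was in 12 of the 35 (34.3%) and in 9.55% of all genes. By role, the ISRE core was found in 6 of 6 GTPase genes with a window, in 3 of 4 membrane protein genes, 3 of 4 genes of double-stranded RNA effectors and 4 of 6 genes of cytosolic antiviral effectors, but in 1 of 5 genes of the immunoproteasome and its activator. A match is a description of the letters and not evidence of binding.

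The stretches printed here belong to genes whose levels the following paragraphs turn on. They are written 5′ to 3′ in the direction of the gene, with the matched motif in capitals and flanks in lower case. The first 3 were higher in epithelial cells than in IELs. The ISRE core lay 46 bases before 1 annotated start in Ifitm2 and 18 and 32 bases after the start in Eif2ak2 and Ifih1. That start of Ifitm2 lies inside the annotated span of the gene, 140954837 to 140959686.
Ifitm2, chr7:140955973-140956032, minus strand: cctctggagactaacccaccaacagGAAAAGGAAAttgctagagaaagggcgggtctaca
Eif2ak2, chr17:78882535-78882564, minus strand: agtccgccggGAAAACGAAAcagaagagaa
Ifih1, chr2:62646206-62646233, minus strand: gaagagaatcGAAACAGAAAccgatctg
The next 4 were lower in epithelial cells. Isg15 carried 3 overlapping cores and Irgm1 carried 2, and Gbp7 and Psme1 had 1 on the opposite strand.
Gbp7, chr3:142530258-142530317, plus strand: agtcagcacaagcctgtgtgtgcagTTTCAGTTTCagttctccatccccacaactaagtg
Isg15, chr4:156200850-156200921, minus strand: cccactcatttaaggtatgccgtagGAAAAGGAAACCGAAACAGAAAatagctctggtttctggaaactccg
Irgm1, chr11:48871421-48871475, minus strand: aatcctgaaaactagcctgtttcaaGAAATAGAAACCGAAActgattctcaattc
Psme1, chr14:55578493-55578522, plus strand: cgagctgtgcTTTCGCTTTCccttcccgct
Psmb8 and Irf1, also lower in epithelial cells, had no ISRE core in the window, and the GAS motif is in capitals.
Psmb8, chr17:34198073-34198131, plus strand: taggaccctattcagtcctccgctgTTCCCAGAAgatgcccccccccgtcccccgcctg
Irf1, chr11:53769899-53769957, plus strand: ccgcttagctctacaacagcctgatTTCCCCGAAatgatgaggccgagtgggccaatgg
Bst2, high in some cells of the B cell cluster, carried 2 overlapping cores.
Bst2, chr8:71537562-71537627, minus strand: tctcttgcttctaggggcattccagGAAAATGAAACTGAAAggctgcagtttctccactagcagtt
The ISRE core was in the windows of the 3 genes that were past 2-fold higher in epithelial cells and of 5 of the 10 genes with a window that were past 2-fold lower, so the motif was present in genes of both directions.

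Summed over the 45 genes, the interferon-stimulated genes were higher in lymphocytes than in epithelial cells. The summed level was 4249.6 CPM (95% interval 3993 to 4519) in nIELs, 5012 CPM (95% interval 4695 to 5345) in iIELs and 6139.8 CPM (95% interval 5598 to 6720.1) in the B cell cluster. It was 1738 CPM (95% interval 1441 to 2078) in stem cells, 1950.2 CPM (95% interval 1734 to 2185) in absorptive precursors and 2580.4 CPM (95% interval 2310.2 to 2873) in secretory precursors. The intervals of the 3 lymphocyte groups lay above those of the 3 epithelial groups without overlap. The 106 epithelial cells together were 2.14-fold lower (1.97 to 2.33) than the 362 IELs, at 2140.3 against 4582 CPM. The difference was as large within set X1, at 2125 against 4583 CPM, and within set X2, at 2184 against 4566 CPM, and the epithelial level was 2065 CPM without the 7 deep cells. A few genes made up most of the sum: Ly6e alone gave 25.5% of its 3167 UMIs, the 5 genes with most UMIs gave 60.4% and the 10 with most gave 76.3%.

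**Figure D1:**
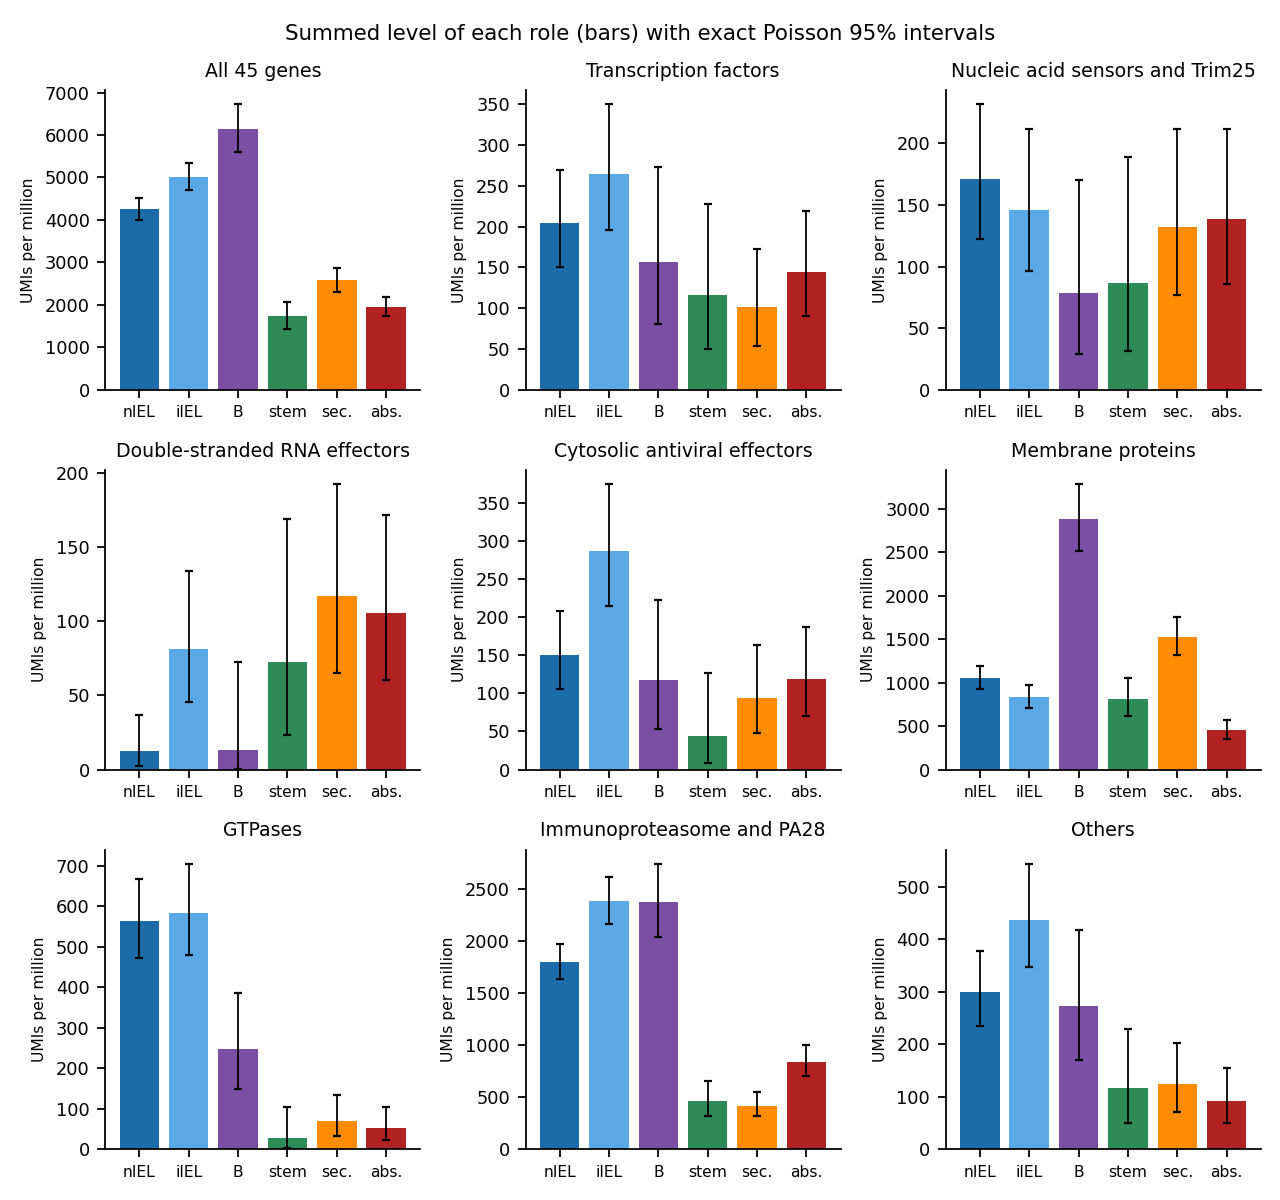
Summed level of all 45 genes and of each role (CPM, y axis) in nIELs, iIELs, the B cell cluster (B), stem cells, secretory precursors (sec.) and absorptive precursors (abs.). Bars are group levels and error bars exact Poisson 95% intervals, and the GTPases stand at 562 and 583 CPM in the IEL groups and at 29.0 to 69.9 CPM in the epithelial groups.

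The same order was seen in single cells. The median cell took 0.412% of its UMIs from the 45 genes in nIELs, 0.471% in iIELs and 0.586% in the B cell cluster. In epithelial cells the median was 0.143% in stem cells, 0.187% in absorptive precursors and 0.206% in secretory precursors. The groups overlapped cell by cell, since the epithelial cells reached 1.04% at most and the IELs ranged from 0% to 1.99%. No UMI of the 45 genes was seen in 13 of 362 IELs, in 15 of 106 epithelial cells and in none of the 47 cells of the B cell cluster.

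**Figure D2:**
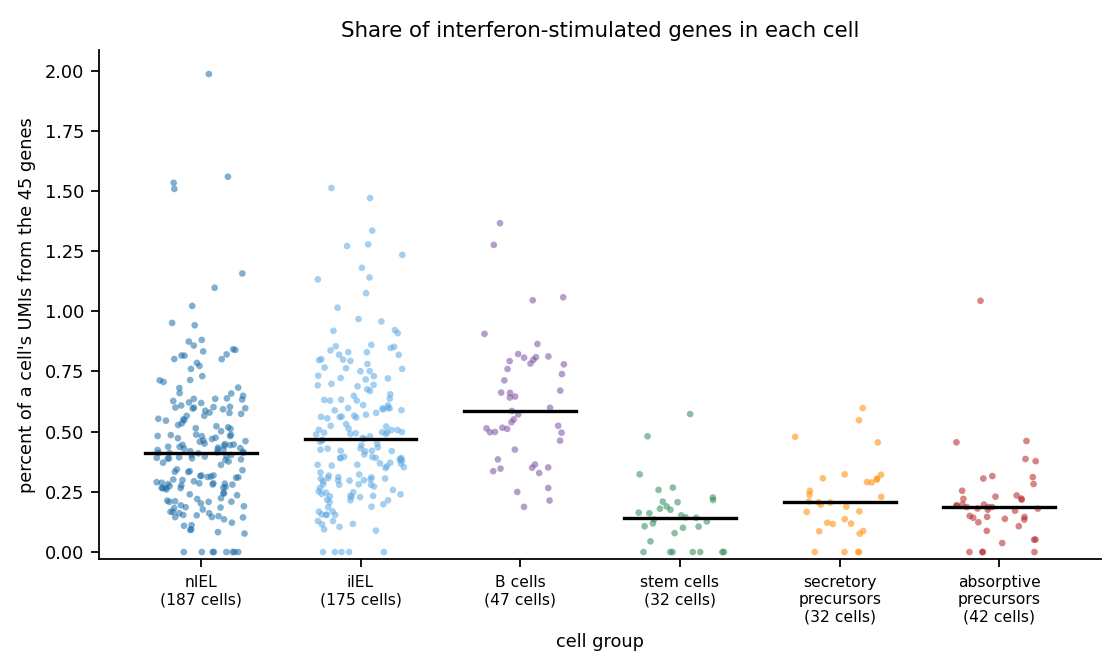
Percent of each cell's UMIs that came from the 45 genes (y axis), 1 point a cell, by cell group, with the group median as a black line. The medians lie between 0.412% and 0.586% in the lymphocyte groups and between 0.143% and 0.206% in the epithelial groups, and 1 absorptive precursor stands at 1.04%.

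Most of the interferon-stimulated genes that could be compared were lower in epithelial cells than in IELs, and a few were higher. Of 23 genes with at least 20 UMIs over both groups, 14 were past 2-fold lower in epithelial cells (background 23.6% of 5778 genes), 3 were past 2-fold higher (background 24.6%), and 6 (Stat2, Irf9, Isg20, Bst2, Ly6e and Psmb10) were within 2-fold. The share that was lower thus lay above the background and the share that was higher below it. The median fold of the 23 genes was 0.421, against 0.956 over the 5778 genes. By role, the summed GTPases were 10.5-fold lower (6.59 to 17.8) in epithelial cells, the immunoproteasome and PA28 genes 3.35-fold lower (2.88 to 3.91) and the cytosolic antiviral effectors 2.22-fold lower (1.47 to 3.41). In this last role Isg15 was 5.17-fold lower (2.31 to 13.6) and Isg20 was within 2-fold, and the sum without Isg15 was not computed. The membrane proteins were at 918 against 955 CPM, within 2-fold, and the double-stranded RNA effectors were 2.43-fold higher (1.35 to 4.55) in epithelial cells. For these effectors nIELs stood at 12.5 CPM and iIELs at 81.0, against 103 in epithelial cells and 72.4 in stem cells alone.

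**Figure D3:**
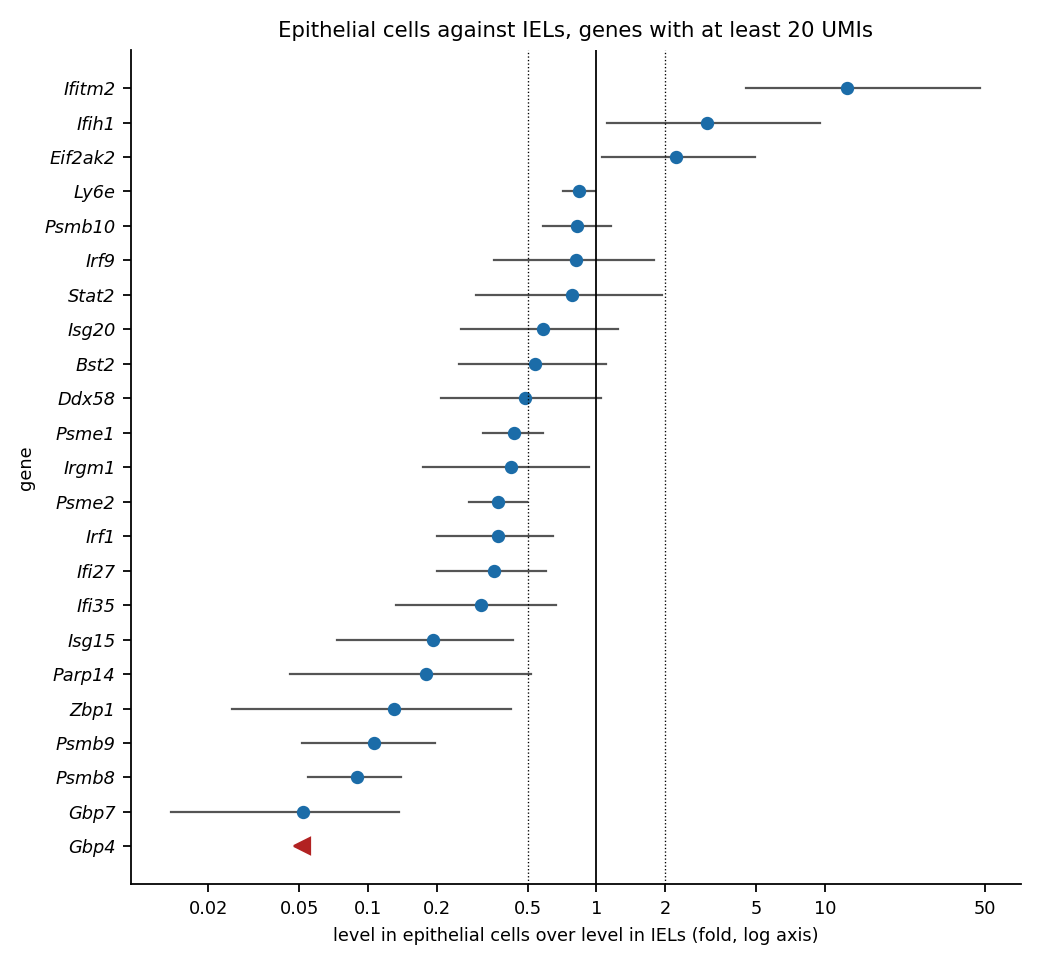
Level in the 106 epithelial cells over the level in the 362 IELs (x axis, fold on a log scale) for the 23 genes with at least 20 UMIs in the 2 groups together (y axis). Points are folds, lines exact binomial 95% intervals, dotted lines mark 2-fold in either direction, and the red arrow of Gbp4, with no epithelial UMI, is an upper bound, and 14 genes lie left of the lower dotted line while Ifitm2, Ifih1 and Eif2ak2 lie right of the upper one.

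The interferon-inducible GTPases had 19 UMIs in epithelial cells and 243 in IELs. Guanylate-binding proteins and immunity-related GTPases coat and break vacuoles that hold intracellular microbes. Gbp7 was at 233 CPM in nIELs, 205 in iIELs, 26.1 in the B cell cluster, 14.5 in stem cells, 0 in absorptive precursors and 23.3 in secretory precursors. Gbp4 was at 150.0 CPM in nIELs, 189 in iIELs, 26.1 in the B cell cluster, 0 in stem cells, 0 in absorptive precursors and 0 in secretory precursors. Thus Gbp4 had 71 UMIs in IELs and 0 in epithelial cells, which allows up to 8.58 CPM. That limit is 19.5-fold below the measured IEL level, whose own counting error is not included. Gbp7 was 19.3-fold lower (7.30 to 72.4). Gbp2, Gbp3 and Gbp5 had 17, 12 and 8 UMIs in IELs and likewise 0 in epithelial cells. Reads of Gbp2 and of its near-identical neighbor Gbp2b may not be told apart by the counting. Irgm1, a regulator of other immunity-related GTPases, was at 50 CPM in nIELs, 75.6 in iIELs, 104 in the B cell cluster, 0 in stem cells, 32.9 in absorptive precursors and 31.1 in secretory precursors. It was 2.37-fold lower (1.08 to 5.76) in epithelial cells, while Igtp and Iigp1 had 15 and 8 UMIs in all. T cell markers had 18 UMIs in epithelial cells, 17 of them in absorptive precursors, and stood at 0.00582 of their IEL level and Gbp7 at 0.0518.

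The immunoproteasome separated lymphocytes from epithelium by subunit. Psmb8, Psmb9 and Psmb10 encode the catalytic subunits that replace the constitutive Psmb5, Psmb6 and Psmb7 in the immunoproteasome, and Psme1 and Psme2 encode the PA28 activator that opens it. Psmb8 was at 579 CPM in nIELs, 794 in iIELs, 991 in the B cell cluster, 101 in stem cells, 65.9 in absorptive precursors and 31.1 in secretory precursors. Psmb9 was at 246 CPM in nIELs, 362 in iIELs, 404 in the B cell cluster, 14.5 in stem cells, 59.3 in absorptive precursors and 7.77 in secretory precursors. Both were lower in every epithelial group than in every lymphocyte group, Psmb8 by 11.2-fold (7.18 to 18.4) and Psmb9 by 9.42-fold (5.09 to 19.3) for all epithelial cells against IELs. Psmb10 was at 192 CPM in nIELs, 221 in iIELs, 235 in the B cell cluster, 188 in stem cells, 178 in absorptive precursors and 148 in secretory precursors. Its epithelial level was 0.825 (0.583 to 1.16) of the IEL level, an interval that holds 1. Psme1 was at 350.0 CPM in nIELs, 454 in iIELs, 443 in the B cell cluster, 116 in stem cells, 231 in absorptive precursors and 132 in secretory precursors. Psme2 was at 433 CPM in nIELs, 551 in iIELs, 299.8 in the B cell cluster, 43.4 in stem cells, 309.7 in absorptive precursors and 101 in secretory precursors. In epithelial cells the PA28 genes were 2.30-fold lower (1.70 to 3.14) and 2.69-fold lower (2.02 to 3.62), with the absorptive precursors nearest to the lymphocytes. Psme2 has a near-identical copy, Psme2b, so its counts are uncertain.

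Set against the constitutive subunit that it replaces, each immuno-subunit gave a share within each group. Of the UMIs of Psmb8 and Psmb5, Psmb8 took 85.1% (80.9% to 88.7%) in IELs, 93.8% (86.2% to 98%) in the B cell cluster and 47.7% (32.5% to 63.3%) in epithelial cells. Of those of Psmb9 and Psmb6, Psmb9 took 63.3% (56.2% to 70.0%), 72.1% (56.3% to 84.7%) and 12.9% (6.64% to 22.0%). Of those of Psmb10 and Psmb7, Psmb10 took 77.0% (68.1% to 84.4%), 75% (53.3% to 90.2%) and 64.8% (54.1% to 74.6%). The epithelial interval lay below that of the IELs for the first and second pair and overlapped it for the third. For the 3 pairs together the immuno-subunits took 77.0% (73.6% to 80.2%) in IELs, 46.7% (31.7% to 62.1%) in stem cells, 42.6% (33.1% to 52.5%) in absorptive precursors and 35.8% (24.5% to 48.5%) in secretory precursors. The epithelial value was 41.9% within X1, 40.3% within X2 and 40.5% without the deep cells. The constitutive subunits Psmb5, Psmb6 and Psmb7 summed to 369 CPM in epithelial cells and 350.4 CPM in IELs, and none of the 11 constitutive proteasome genes listed was past 2-fold in either direction.

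**Figure D4:**
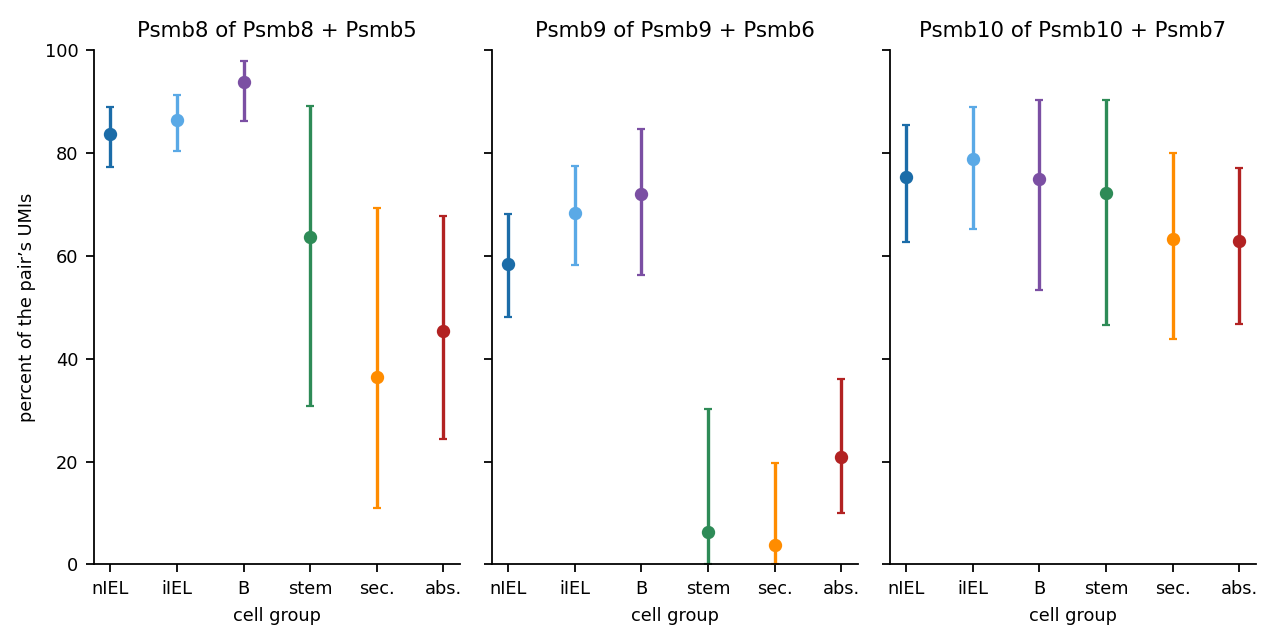
Percent of the UMIs of each pair of proteasome subunits that came from the immuno-subunit (y axis) in the 6 cell groups (x axis), with exact Clopper-Pearson 95% intervals. The epithelial groups sit at 3.85% to 20.9% for Psmb9 and at 62.8% to 72.2% for Psmb10.

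The membrane proteins of the list behaved differently from each other. Ifitm proteins block the fusion of viruses with cell membranes, Bst2 (tetherin) holds budding particles at the surface, and Ly6e is a surface protein anchored in the membrane by a lipid. Ifitm2 was at 4.17 CPM in nIELs, 16.2 in iIELs, 65.2 in the B cell cluster, 232 in stem cells, 85.7 in absorptive precursors and 93.3 in secretory precursors. It was 12.5-fold higher (4.52 to 47.9) in epithelial cells than in IELs, with 41 UMIs against 4, and 14.1-fold (4.98 to 55.2) higher without the deep cells. A UMI of Ifitm2 was found in 23.6% of epithelial cells (median depth 1606.5 UMIs) and 1.10% of IELs (1038 UMIs), and thinned to 700 UMIs a cell the shares were 7.42% and 0.579%. Ifitm3 had 11 UMIs in epithelial cells and 0 in IELs, which allows up to 7.06 CPM, and Ifitm1 had 0 and 3. The Ifitm genes are similar in sequence, and reads shared between them may have been split or lost. Ly6e was at 987 CPM in nIELs, 729 in iIELs, 2346 in the B cell cluster, 507 in stem cells, 329 in absorptive precursors and 1337 in secretory precursors. Secretory precursors thus stood above both IEL groups and absorptive precursors below them, and all epithelial cells together were within 2-fold of the IELs, at 735 against 875 CPM. Bst2 was at 45.8 CPM in nIELs, 86.4 in iIELs, 313 in the B cell cluster, 29.0 in stem cells, 26.4 in absorptive precursors and 46.6 in secretory precursors. Its epithelial level was 0.541 of the IEL level, with an interval of 0.25 to 1.10.

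Genes that sense nucleic acids or act on double-stranded RNA went both ways. Ifih1 (MDA5) and Ddx58 (RIG-I) are cytosolic RNA sensors, Zbp1 senses left-handed nucleic acid and triggers cell death, and Eif2ak2 (PKR) stops translation when it binds double-stranded RNA. Ifih1 was at 16.7 CPM in nIELs, 10.8 in iIELs, 0 in the B cell cluster, 14.5 in stem cells, 52.7 in absorptive precursors and 46.6 in secretory precursors. Eif2ak2 was at 8.33 CPM in nIELs, 54.0 in iIELs, 0 in the B cell cluster, 57.9 in stem cells, 52.7 in absorptive precursors and 77.7 in secretory precursors. In epithelial cells Ifih1 was 3.04-fold higher (1.12 to 9.57) and Eif2ak2 2.23-fold higher (1.06 to 4.94) than in IELs. The Eif2ak2 level of iIELs lay within the range of the epithelial groups, and only that of nIELs was below it. Of the 15 epithelial UMIs of Ifih1, 11 came from the 7 deep cells, and without these cells its level was 1.26-fold (0.261 to 5.30) that of the IELs, while that of Eif2ak2 was 2.67-fold (1.20 to 6.12). Within set X2 alone, with 6 epithelial UMIs, the level of Eif2ak2 was 0.683-fold (0.146 to 4.22) that of the IELs. Zbp1 was at 70.8 CPM in nIELs, 59.4 in iIELs, 26.1 in the B cell cluster, 0 in stem cells, 13.2 in absorptive precursors and 7.77 in secretory precursors. Ddx58 was at 70.8 CPM in nIELs, 43.2 in iIELs, 13.0 in the B cell cluster, 29.0 in stem cells, 32.9 in absorptive precursors and 23.3 in secretory precursors. Zbp1 was 7.67-fold lower (2.37 to 39.4) in epithelial cells, and Ddx58 2.05-fold lower (0.953 to 4.79), with an interval that holds 1. Trim25, the ligase that activates Ddx58 protein, was below the 20-UMI limit, with 15 UMIs in epithelial cells and 3 in IELs, and Oasl2 had 7 and 0. Oas1a, which shares nearly all its sequence with Oas1g, had 12 UMIs in all, Dhx58 had 9 and Oas3 had 1.

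The classic cytosolic effectors were sparse in every group. Isg15 is a ubiquitin-like protein that is attached to other proteins, and Isg20 is an exonuclease of single-stranded RNA. Isg15 was at 66.7 CPM in nIELs, 151 in iIELs, 91.2 in the B cell cluster, 0 in stem cells, 32.9 in absorptive precursors and 15.5 in secretory precursors. Isg20 was at 37.5 CPM in nIELs, 75.6 in iIELs, 0 in the B cell cluster, 29.0 in stem cells, 19.8 in absorptive precursors and 46.6 in secretory precursors. Isg15 was 5.17-fold lower (2.31 to 13.6) in epithelial cells than in IELs and had no UMI in the 32 stem cells, which allows up to 43.4 CPM, whereas Isg20 was within 2-fold. Usp18, which removes Isg15, Ifit1, Ifit2, Ifit3, Rsad2 (viperin) and Mx1 had 2 to 9 UMIs each over all 515 cells, so no comparison of them was possible at this depth.

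Of the 3 transcription factors compared, Irf1, which interferon gamma induces, was past 2-fold. Irf1 was at 117 CPM in nIELs, 151 in iIELs, 52.1 in the B cell cluster, 72.4 in stem cells, 46.1 in absorptive precursors and 38.9 in secretory precursors. It was 2.71-fold lower (1.55 to 4.97) in epithelial cells than in IELs. Stat2 was at 33.3 CPM in nIELs, 32.4 in iIELs, 39.1 in the B cell cluster, 29.0 in stem cells, 32.9 in absorptive precursors and 15.5 in secretory precursors. Irf9 was at 33.3 CPM in nIELs, 54.0 in iIELs, 26.1 in the B cell cluster, 14.5 in stem cells, 46.1 in absorptive precursors and 31.1 in secretory precursors. Stat2 and Irf9, which bind the ISRE together, were within 2-fold, and Irf7, which amplifies type I interferon, had 18 UMIs in all. Ifi27, Ifi35 and Parp14 (an ADP-ribosyltransferase) were lower in epithelial cells. Ifi27 was at 121 CPM in nIELs, 194 in iIELs, 78.2 in the B cell cluster, 29.0 in stem cells, 32.9 in absorptive precursors and 93.3 in secretory precursors. Ifi35 was at 70.8 CPM in nIELs, 97.2 in iIELs, 65.2 in the B cell cluster, 57.9 in stem cells, 19.8 in absorptive precursors and 15.5 in secretory precursors. Parp14 was at 58.3 CPM in nIELs, 70.2 in iIELs, 91.2 in the B cell cluster, 29.0 in stem cells, 6.59 in absorptive precursors and 7.77 in secretory precursors. These 3 genes were 2.81-fold lower (1.67 to 4.97), 3.20-fold lower (1.51 to 7.56) and 5.55-fold lower (1.93 to 21.8) in epithelial cells than in IELs, and Ifi27 stood highest there in secretory precursors. Xaf1, a factor that favors apoptosis, was at 37.5 CPM in nIELs, 48.6 in iIELs, 26.1 in the B cell cluster, 0 in stem cells, 0 in absorptive precursors and 7.77 in secretory precursors. Gbp2 was at 45.8 CPM in nIELs, 32.4 in iIELs, 39.1 in the B cell cluster, 0 in stem cells, 0 in absorptive precursors and 0 in secretory precursors. Both had at most 1 UMI in epithelial cells, which left them under the 20-UMI limit for the comparison with IELs. With this 1 UMI, Xaf1 was 14.8-fold lower (2.34 to 616) in epithelial cells. Rtp4 had 11 UMIs and Ifi44 had 3 over all cells.

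**Figure D5:**
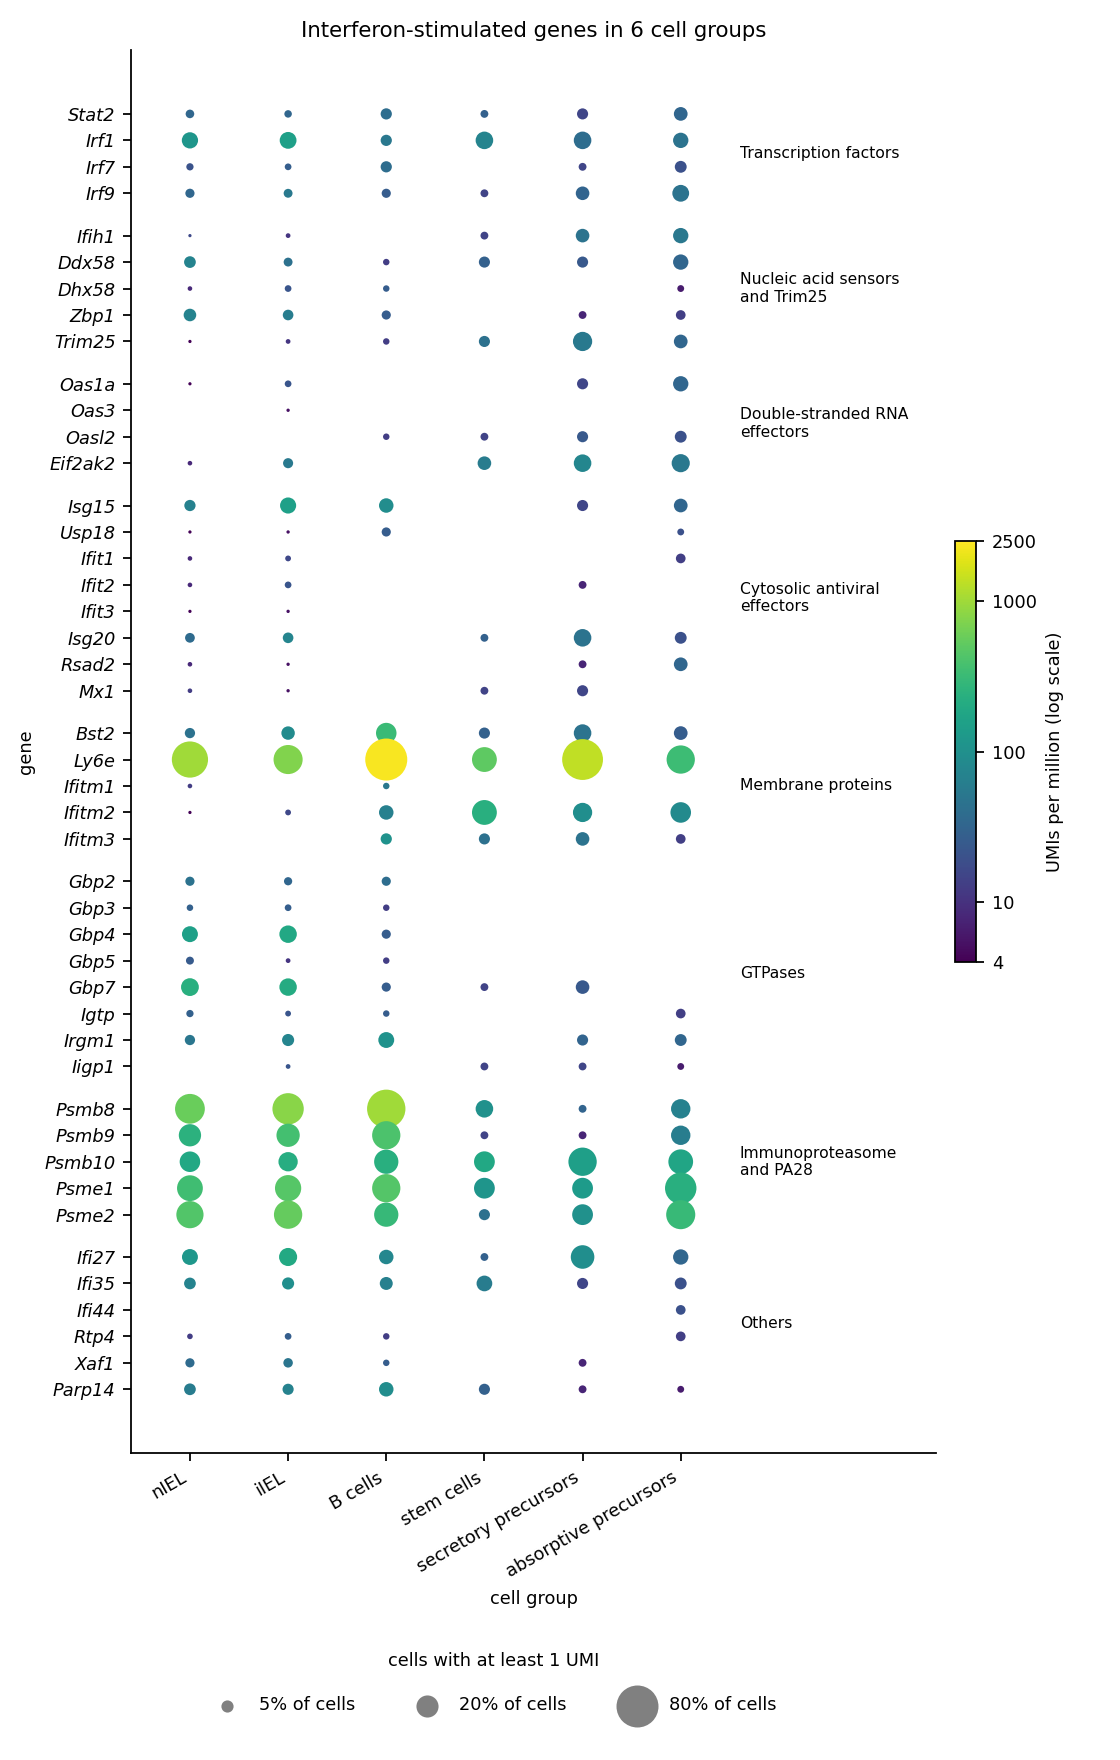
The 45 genes by role (y axis) in the 6 cell groups (x axis). Dot color is the level (CPM on a log scale, levels under 4 drawn as 4) and dot area the percent of cells with at least 1 UMI, with no dot where there was no UMI, as for Gbp2 to Gbp5 in the 3 epithelial groups.

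The receptors, kinases and inhibitors upstream of these genes were given as lists. Of 5 receptor genes with at least 20 UMIs, 3 were past 2-fold lower in epithelial cells than in IELs (background 23.6%) and 1 was higher (background 24.6%). Interferon gamma needs both chains of its receptor, and these were distributed oppositely: Ifngr1 had 120 UMIs in IELs and 21 in epithelial cells, while Ifngr2 had 1 and 44. Ifngr1 was 4.70-fold lower (2.94 to 7.87) in epithelial cells and Ifngr2 53.5-fold higher (9.12 to 2162). Within the epithelium, Ifngr1 was at 29.0 CPM in stem cells, 105 in absorptive precursors and 23.3 in secretory precursors. Ifnar1 and Ifnar2, the type I receptor, were 2.88-fold lower (1.12 to 8.71) and 3.52-fold lower (1.52 to 9.50) in epithelial cells, and Il10rb, the shared chain of the type III receptor, was within 2-fold. Ifnlr1, the specific chain of that receptor, had 2 UMIs in all, both in absorptive precursors. Jak1 and Jak2 were 3.41-fold lower (2.21 to 5.46) and 5.21-fold lower (1.53 to 27.5) in epithelial cells, and Tyk2 had too few UMIs. Of the inhibitors, Socs1 had 17 UMIs in IELs and 0 in epithelial cells, Socs3 had 6 in all, and Ptpn2, a phosphatase of this pathway, was within 2-fold. Ifng itself had 14 UMIs, 3 in nIELs, 9 in iIELs and 2 in the B cell cluster, and Ifnb1, Ifnl2, Ifnl3 and Ifne had no row.

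Between the nIEL and iIEL groups few of the interferon-stimulated genes with enough UMIs to compare were past 2-fold. Of 18 genes with at least 20 UMIs, none was past 2-fold higher in nIELs (background 5.72% of 3321 genes) and 2 were past 2-fold lower (background 6.2%), with a median fold of 0.771 against 1.00 over all genes. These counts lay near the background. The summed level was 1.18-fold lower (1.08 to 1.29) in nIELs than in iIELs. Isg15 was 2.27-fold lower (1.19 to 4.49) and Isg20 2.02-fold lower (0.813 to 5.28), the second with an interval that holds 1. Under the 20-UMI limit, Eif2ak2 was 6.48-fold lower (1.38 to 60.8) in nIELs. The summed double-stranded RNA effectors were 6.48-fold lower (1.83 to 34.9) and the cytosolic antiviral effectors 1.91-fold lower (1.23 to 3.00), while the other roles were within 2-fold. Psmb8 and Psmb9 were 1.37-fold lower (1.08 to 1.74) and 1.47-fold lower (1.02 to 2.13) in nIELs, and Ly6e went the other way, 1.35-fold higher (1.09 to 1.69). With the 14 doubly listed cells kept as IELs, the summed ratio of nIELs over iIELs turned from 0.848 to 1.05. None of the genes over the 20-UMI limit was then past 2-fold lower. The direction of the sum thus depends on how those cells are placed. As counted here, T cell markers were 172-fold lower (109 to 290) in the epithelial cells, these 14 among them, than in IELs. The macrophage gene Lyz2 had 1 UMI in nIELs and 19 in iIELs, but 18 of the 19 were in 1 cell, and its part in the result was not tested.

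The B cell cluster had the highest summed level, and this rested on Ly6e. Its summed level was 1.34-fold higher (1.21 to 1.48) than that of the IELs, and 1.02-fold (0.900 to 1.16) with Ly6e left out of the sum. Of 21 genes with at least 20 UMIs, 2 were past 2-fold higher (background 7% of 3844 genes) and 5 past 2-fold lower (background 17%), shares little above the background. Ly6e was 2.68-fold higher (2.23 to 3.21) and Bst2 4.93-fold higher (2.72 to 8.87). Gbp4 and Gbp7 were 6.41-fold lower (1.71 to 53.9) and 8.48-fold lower (2.28 to 71.0), and Irf1, Ddx58 and Zbp1 were past 2-fold lower with intervals that hold 1. Psmb8 was 1.47-fold higher (1.13 to 1.90), within the 2-fold limit. Ifitm2, under the 20-UMI limit, had an IEL level that was 0.144 (0.0286 to 0.671) of that of the cluster. In the split described below, Ifitm2 had 0 UMIs in the 34 cells with a B cell marker, 2 in the 8 cells with Siglech and 3 in the 5 cells with neither. Isg20, Ifih1 and Eif2ak2 had no UMI in the 47 cells, which allows up to 39.1 CPM.

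Within this cluster Bst2 came mostly from cells with Siglech, while Ly6e was high both in these and in cells with a B cell marker. Of the 24 UMIs of Bst2, 18 were in the 8 cells with Siglech, a surface lectin of plasmacytoid dendritic cells, and 5 in the 34 cells with a UMI of Cd79a, Cd79b or Ms4a1. The level of Bst2 was 1558 CPM (924 to 2463) in the first and 88.9 CPM (28.9 to 208) in the second, or 24.5-fold (12.7 to 46.2) and 1.40-fold (0.421 to 3.69) over the IELs. No cell held both Siglech and 1 of these B cell markers, no cell outside the cluster held Siglech, and the median depths were 1490.5 and 1493 UMIs. Ly6e was at 2944 CPM in the Siglech cells and 2419 CPM in the cells with a B cell marker, 3.36-fold (2.30 to 4.79) and 2.76-fold (2.25 to 3.37) over the IELs. The remaining 5 cells had neither, and 2 of them held 47 UMIs of Lyz2 and 7 of the 8 Ifitm3 UMIs of the cluster. In the 34 cells with a B cell marker the summed level was 5905 CPM, 1.29-fold (1.14 to 1.45) over the IELs. This split was made after the values had been seen.

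Within the epithelium the depth allowed few comparisons. The summed level of stem cells was 1.29-fold lower (1.06 to 1.58) than that of both precursor groups together, and 1.18-fold lower (0.929 to 1.5) without Ly6e, an interval that holds 1. Of 7 genes with at least 20 UMIs, 2 were past 2-fold higher in stem cells (background 13.1% of 3013 genes) and 1 was past 2-fold lower (background 16.1%). Ifitm2 was 2.60-fold higher (1.30 to 5.06) in stem cells, and Psmb8 2.03-fold higher (0.694 to 5.38), with an interval that holds 1. Within set X2, where Ifitm2 had 9 UMIs in stem cells and 12 in precursors, its ratio was 0.826 (0.307 to 2.14), against 4.88 (1.65 to 13.2) within set X1. Psme2 was 4.92-fold lower (1.61 to 24.5) in stem cells, with 3 UMIs against 60. Ly6e, 1.56-fold lower (1.09 to 2.30) in stem cells, had 22 of its 35 stem cell UMIs in 1 cell, and without the deep cells its ratio moved from 0.640 to 0.398 (0.207 to 0.706).

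Ly6e and Psme2 were past 2-fold in opposite directions between the precursor groups. Of 5 genes with at least 20 UMIs, 1 was past 2-fold higher in absorptive than in secretory precursors (background 17.1% of 2410 genes) and 1 was past 2-fold lower (background 11.5%), shares near the background. Ly6e was 4.06-fold lower (2.95 to 5.68) in absorptive precursors, and a UMI of it was found in 40.5% of them and 84.4% of secretory precursors (17.5% and 53.9% thinned to 700 UMIs). Psme2 was 3.06-fold higher (1.63 to 6.17) in absorptive precursors, where 1 cell held 14 of its 47 UMIs, as 1 secretory precursor held 38 of the 172 UMIs of Ly6e, and Psme1 was at a ratio of 1.75 (0.952 to 3.32). Psmb9, under the 20-UMI limit with 9 UMIs in absorptive and 1 in secretory precursors, had a secretory level 0.131 (0.00299 to 0.946) of the absorptive level. Within set X1 the ratios were 0.211-fold (0.142 to 0.305) for Ly6e and 2.53-fold (1.32 to 5.16) for Psme2, and without the deep cells 0.293-fold (0.196 to 0.431) and 3.34-fold (1.37 to 9.82). The direction of the summed level followed Ly6e: absorptive precursors were 1.32-fold lower (1.13 to 1.55) over all genes and 1.30-fold higher (1.06 to 1.60) over all but Ly6e. With cells of at least 700 UMIs weighted equally, as thinning to 700 UMIs does, the ratio over all genes was 1.01. The 11 constitutive proteasome genes also summed to more in absorptive precursors, 1.69-fold higher (1.40 to 2.04), and the share of immuno-subunits given above had overlapping intervals in the groups.

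A single absorptive precursor stood apart by the number of antiviral genes it contained. Taking 18 genes of the list that make up the antiviral core (sensors, Oas, Ifit and Isg15 among them), most cells held UMIs of none. A total of 346 of the 515 had 0 core genes, 133 had 1, 25 had 2 and 11 had 3 or more. Cells with 3 or more were 3 of 362 IELs (0.829%, exact Clopper-Pearson 95% interval 0.171% to 2.40%) and 7 of 106 epithelial cells (6.60%, 2.70% to 13.1%). These intervals take the cells as independent and do not hold the spread between animals. The 7 epithelial cells had 2875 to 23171 UMIs, and the part of depth in their count was not tested. Of these 7 cells 4 were also listed as IELs, and with the doubly listed cells kept as IELs the counts were 7 of 376 IELs (1.86%, 0.752% to 3.80%) and 3 of 92 epithelial cells (3.26%, 0.678% to 9.23%), whose intervals overlap. The cell that stood apart had 2875 UMIs, far fewer than the deep cells, and held 10 core genes: Ifit1, Isg15, Usp18, Irf7, Oas1a, Oasl2, Ifi44, Rtp4, Zbp1 and Ifih1. No other epithelial cell held more than 3, and iIELs with 992 and 2612 UMIs held 5 each. It held 30 UMIs of 19 of the 45 genes, 13 of them core, and so contributed 13 of the 47 core UMIs of the absorptive precursors, all 3 of their Usp18 UMIs and 2 of their 3 Ifi44 UMIs. It carried 69 UMIs of epithelial markers, none of T cell, dendritic or macrophage markers, 0 of Cd79a, Cd79b or Ms4a1 and 3 of Cd74, and mitochondrial genes took 9.98% of its UMIs, against 6.21% over the absorptive precursors. It was singled out after its values had been seen.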

How the data were processed

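Single-cell libraries of mouse colon crypt cells were made by Drop-seq and pooled into 2 labelled samples. The authors deposited 1 matrix of UMI counts, not normalised, with 19294 genes and 1117 barcodes, and the study's barcode lists named 516 of these in clusters. Per the labels, Picard 1.137 and STAR 2.5.0 were used, with mm10 and hg19 as genome builds (from the submitters' processing notes). The reads had gone through the published Drop-seq pipeline and the cells through filters in Seurat. The annotation and the thresholds of these filters are not given in the sources used here, and human cells had been mixed in, so reads shared by both species, or by near-identical genes, may have been lost or split.

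The barcode endings X1 and X2 match neither sample label, so all cells formed 1 sample and no replicate error exists. Intervals of levels, ratios and shares of UMIs cover counting error only, with UMIs taken as independent. Intervals of shares of cells take the cells as independent, and no interval holds the spread between animals. Rows were matched by gene symbol. UMIs were summed over the cells of a group and divided by the group's total to give UMIs per 1000000 (CPM), with exact Poisson intervals at 95.0% confidence. Ratios were given exact conditional binomial intervals, and shares exact Clopper-Pearson intervals. A group at 0 was set to a floor of 3 counts over the group. In the 5 comparisons a gene was compared where both groups together held at least 20 UMIs, and past 2-fold was the limit for a count of genes, set beside the share of all genes past that limit. For shares of cells at equal depth each cell was thinned to 700 UMIs, which left out 83 cells. Thinned ratios were taken from each cell's own CPM averaged over the remaining cells, the value that thinning gives on average. No doublet caller was run, and 3 cells with at least 2 UMIs of both epithelial and T cell markers were left out as an alternative. Genes with at least 20 UMIs over all cells were described singly. In each comparison those past 2-fold were named where both groups together held at least 20 UMIs or the interval left out 1. The others were given by count. Promoter windows came from RefSeq on GRCm38.p6. The genes, marker lists and comparisons were chosen with earlier results of these data known, and 1 B cell marker and 1 pathway gene are not reported here. A total of 15 alternatives were run, of which leaving out cells above 10000 UMIs and leaving out cells without a B cell marker, like the placing of doubly listed cells in the count of antiviral core genes, were chosen after seeing the data. The calculations used Python 3.11.15, NumPy 2.4.6, pandas 2.3.3 and SciPy 1.17.1, and were tested on simulated data.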

Additional observations from a re-analysis of the deposited data

Results flagged for a closer look

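Barcodes outside the study's clusters also held interferon-stimulated genes. The 601 barcodes in no cluster, with a median of 212 UMIs, held 342 UMIs of the 45 genes, or 1991 CPM (exact Poisson 95% interval 1786 to 2214). They enter no comparison, and which cells they came from was not tested.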

How the results depend on the processing

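No paired analysis was possible because both pools carry 1 condition and the barcodes cannot be assigned to them. Over the alternatives, the summed ratio ranged from 0.379 to 0.530 for epithelial cells over IELs, from 1.02 to 1.58 for the B cell cluster over IELs, from 0.762 to 1.05 for nIELs over iIELs, from 0.636 to 0.850 for stem cells over precursors and from 0.746 to 1.30 for absorptive over secretory precursors. Of 56 recomputed summed ratios 43 stayed within the main interval on the same side of 1, 10 moved past it and 3 reversed, and of 294 ratios of named genes 284 stayed, 8 moved and 2 reversed. The reversals were nIELs over iIELs with doubly listed cells kept as IELs (1.05), absorptive over secretory precursors without Ly6e (1.30) or thinned to 700 UMIs (1.01), and, in set X2 alone, Eif2ak2 in epithelial cells over IELs (0.683) and Ifitm2 in stem cells over precursors (0.826). Summed ratios that moved were, for epithelial cells over IELs, 0.407 with CPM averaged over cells, 0.424 without mitochondrial and ribosomal protein genes, 0.530 with doubly listed cells kept as IELs, 0.379 without Ly6e and 0.401 thinned. For the B cell cluster they were 1.58 in set X2, 1.499 with doubly listed cells kept as IELs and 1.02 without Ly6e. Without Ly6e nIELs over iIELs moved to 0.762, and as the mean of cells absorptive over secretory precursors moved to 0.943.

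Counts past 2-fold that changed by more than 1.5 times are given here, with higher before lower. With the mean of cells, 1 gene was higher in epithelial cells, 1 in stem cells and 2 in absorptive precursors. Without mitochondrial and ribosomal protein genes, 1 was lower in nIELs and 1 higher in stem cells. In set X2 alone, the counts were 1 and 2 in epithelial cells, 1 and 0 in the B cell cluster, 0 lower in nIELs, 0 and 0 in stem cells and 0 higher in absorptive precursors, with fewer genes compared. In set X1 alone, with doubly listed cells kept as IELs, without the cell with most UMIs of the genes in each group, and without cells above 10000 UMIs, stem cells had 1 and 2. With doubly listed cells kept as IELs, nIELs had 0 lower, and without cells above 10000 UMIs absorptive precursors had 2 higher, and the 3 genes higher in epithelial cells became 2, a change of 1.5 times, as Ifih1 was then under 20 UMIs. From 10 UMIs on, 5 genes were higher in epithelial cells, 5 lower in stem cells, and 3 and 2 in absorptive precursors. From 50 UMIs on, 0 and 9 were found in epithelial cells, 3 lower in the B cell cluster, 0 lower in nIELs and 0 higher in stem cells, as fewer genes were compared. Past 1.5-fold, 9 were lower in the B cell cluster, 1 and 5 in nIELs, 3 lower in stem cells and 2 higher in absorptive precursors. Unless named with a construction above, the cause was not tested. Depth limited single genes most, since 20 of the 45 had under 20 UMIs in all cells.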
